A study of Mus musculus with 11 samples.

Results

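The 1000 gene windows with the strongest H3K4me3 signal were examined in granulosa cells of the mouse ovary, out of 24541 windows counted (4.07%). H3K4me3 is histone H3 trimethylated at lysine 4. The windows were the 1000 Entrez gene IDs with the highest mean normalised read count (CPM, scaled by library size) over 4 H3K4me3 ChIP-seq libraries, so the members were chosen by their H3K4me3 values and their level is no finding. The RNA of the same IDs came from RNA-seq and took no part in the choice. The mice were C57BL/6. Cells of the 48 h group came from mice given equine chorionic gonadotropin (eCG) for 48 h, and the 0 h group was untreated. ChIP-seq had 2 libraries per group and RNA-seq had 3 per group, and the RNA samples were labelled postnatal day 21 and obtained by puncturing follicles. The treatment text speaks of follicle-stimulating hormone (FSH), whereas the sample labels name eCG, which has FSH activity in mice. There was no untreated group at 48 h, so eCG and elapsed time cannot be told apart. An input DNA library was not used here.

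Trimethylation of histone H3 at lysine 4 is laid down by the SET1 and MLL families of methyltransferases and marks the start sites of active and poised genes. CpG-rich promoters recruit these enzymes through CXXC-domain proteins, and the mark tends to be broad at genes of cell identity. Granulosa cells surround the oocyte, answer FSH through cAMP, make inhibins and activins, and convert androgens to oestrogens. The window counted for each gene is not given in the sources used here, so each value belongs to a gene and cannot be tied to its promoter.

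The sequences of 5 members and of 1 microRNA are shown because these genes are named in the results below. Each stretch is the 250 bases before the start that the RefSeq promoter table gives (GRCm38.p6), read 5′ to 3′ on the strand of the gene, with every CG dinucleotide in capitals. That start need not be the outer end of the gene, and the gene table puts the first base of Inha at 75507077 and of Kdm6a at 18160862, so that their stretches lie within the gene. Foxl2, the forkhead factor of granulosa cell fate, has a CpG-rich stretch, and those given for Inha, the inhibin alpha subunit, and Gja1, connexin 43, hold few CpGs. Inhbb, the inhibin and activin beta B subunit, had the largest H3K4me3 rise among members whose groups did not overlap, and Kdm6a, an H3K27 demethylase, is 1 of only 3 members on the X chromosome.
Foxl2 (chr9:98955357-98955606, strand +): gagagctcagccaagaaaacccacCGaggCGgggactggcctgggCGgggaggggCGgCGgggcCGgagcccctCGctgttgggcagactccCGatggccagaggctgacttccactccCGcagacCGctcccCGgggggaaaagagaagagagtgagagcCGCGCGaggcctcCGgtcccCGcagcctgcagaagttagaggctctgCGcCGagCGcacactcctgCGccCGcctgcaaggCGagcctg
Inha (chr1:75507359-75507608, strand +): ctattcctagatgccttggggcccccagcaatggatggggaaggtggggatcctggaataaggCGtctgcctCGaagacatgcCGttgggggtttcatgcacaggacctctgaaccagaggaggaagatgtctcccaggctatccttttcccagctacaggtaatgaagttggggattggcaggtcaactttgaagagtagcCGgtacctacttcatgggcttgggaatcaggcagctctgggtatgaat
Gja1 (chr10:56377050-56377299, strand +): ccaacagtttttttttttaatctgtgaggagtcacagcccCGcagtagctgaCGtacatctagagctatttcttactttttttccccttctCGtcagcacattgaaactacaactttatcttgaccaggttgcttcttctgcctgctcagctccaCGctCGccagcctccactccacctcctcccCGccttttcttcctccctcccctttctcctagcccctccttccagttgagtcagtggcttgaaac
Inhbb (chr1:119422249-119422498, strand -): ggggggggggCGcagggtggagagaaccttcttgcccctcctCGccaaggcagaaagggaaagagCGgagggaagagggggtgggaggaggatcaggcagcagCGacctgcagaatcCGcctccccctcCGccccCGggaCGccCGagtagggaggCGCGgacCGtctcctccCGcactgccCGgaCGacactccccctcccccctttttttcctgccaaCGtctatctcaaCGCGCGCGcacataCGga
Kdm6a (chrX:18162325-18162574, strand +): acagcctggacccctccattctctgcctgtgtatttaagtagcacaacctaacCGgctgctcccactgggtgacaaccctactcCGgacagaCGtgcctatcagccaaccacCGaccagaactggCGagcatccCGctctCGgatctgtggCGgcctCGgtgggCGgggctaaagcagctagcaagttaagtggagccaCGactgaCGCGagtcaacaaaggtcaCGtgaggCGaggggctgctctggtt
The stretches hold 22 CpGs for Foxl2, 4 for Inha, 6 for Gja1, 21 for Inhbb and 15 for Kdm6a. The strongest window of all belongs to Mir101c, whose mature microRNA, miR-101c (RefSeq, GRCm38.p6, chr9:3038680-3038698, strand -), is printed with its seed, bases 2 to 8, in capitals.
miR-101c: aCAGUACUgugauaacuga

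Total H3K4me3 counts were 17137463 and 17968033 in 48 h replicates 1 and 2, and 15124233 and 11989769 in 0 h replicates 1 and 2. RNA totals ranged from 12013849 to 26343971 at 48 h and from 15050013 to 18511429 at 0 h. The summed RNA of 14 granulosa markers was 44717 to 46661 CPM at 48 h and 18658 to 23945 CPM at 0 h. The summed RNA of 14 endothelial markers was 247 to 721 CPM at 48 h and 146 to 156 CPM at 0 h, with the highest value in 48 h replicate 1. Theca and interstitial markers (14 genes) summed to 2817 to 5857 CPM at 48 h and 2424 to 3209 CPM at 0 h, with 3 called higher and 2 lower. Red-cell markers summed to 165 to 688 CPM at 48 h and 68.9 to 130.0 CPM at 0 h, with the haemoglobin genes Hba-a1, Hba-a2, Hbb-bs and Hbb-bt at 0 counts, and oocyte markers to 38.5 to 99.5 CPM at 48 h and 97.7 to 109.9 CPM at 0 h. None of the 85 genes in the 7 marker lists of other ovarian or blood cells was a member. In such bulk samples fewer cells of a type and less RNA per cell cannot be told apart, and the part of these cells in the results below was not tested.

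Among the 20 strongest windows were genes of the granulosa cell itself. Inha ranked 5 and had H3K4me3 values of 401 and 406 CPM at 48 h, against 335 and 340.2 CPM at 0 h. Foxl2 ranked 7, with 372 and 368 CPM at 48 h and 274 and 304 CPM at 0 h. Next to it stood Bmpr2 at rank 8, the type II receptor for bone morphogenetic proteins, with 329 and 330.2 CPM at 48 h and 326 and 321 CPM at 0 h. Foxo1 at rank 10, a forkhead factor restrained by insulin and FSH signals, Fosl2 at rank 11, a subunit of the AP-1 factor, and Gata6 at rank 17, a GATA factor of steroidogenic cells, followed. Gja1, the connexin of granulosa gap junctions, ranked 19 with 297 and 306 CPM at 48 h and 279 and 289.8 CPM at 0 h. Others in the 20 were Ext1, which polymerises heparan sulphate, the semaphorin Sema5a, Tnrc18 and the nuclear RNA Malat1.

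**Figure D1:**
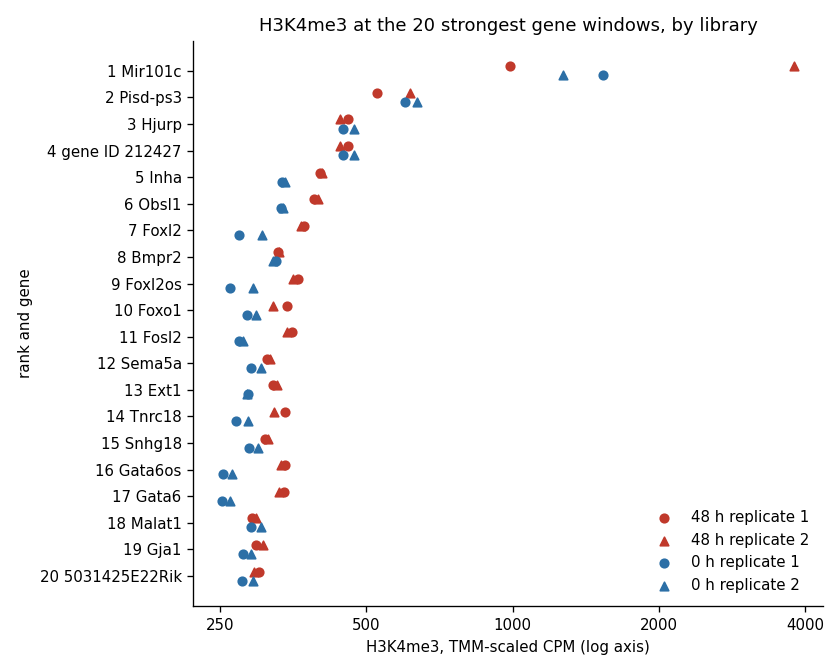
H3K4me3 CPM (TMM-scaled, log axis) at the 20 strongest gene windows, ranked downwards, with 1 point per library, red for 48 h and blue for 0 h, circles for replicate 1 and triangles for replicate 2. Mir101c lies apart from the rest and its 48 h libraries lie on either side of its 0 h libraries, whereas at Inha, Foxl2 and Gata6 both 48 h points lie to the right of both 0 h points.

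The 4 strongest windows stood apart from the others in identity. Mir101c lies at chr9:3038669-3038743 and had 986 and 3794 CPM at 48 h and 1534 and 1267 CPM at 0 h. Its window took 0.0959% and 0.376% of all counts in the 48 h libraries, against 0.159% and 0.127% in the 0 h libraries. The value of 48 h replicate 2 was the highest, and the other 3 libraries also lay above every library of rank 2. Its fitted log2 difference of 0.77 (adjusted p = 0.0159) became -0.51 (0.0160) without 48 h replicate 2 and was not called without 0 h replicate 1 (0.50), with groups that overlapped. No RNA count was recorded for Mir101c in any library. Its counts were not set against the input library, so how much of them is background was not tested. Rank 2 was Pisd-ps3, a transcribed pseudogene that the gene table places on an unplaced sequence, at 525 and 615 CPM at 48 h and 601 and 636 CPM at 0 h. Rank 3 was Hjurp, the chaperone of the centromeric histone CENP-A, at 458 and 441 CPM at 48 h and 449 and 472 CPM at 0 h. Rank 4, gene ID 212427, has no entry in the gene table, and its counts were nearly those of Hjurp, with 457 and 441 CPM at 48 h and 449 and 472 CPM at 0 h. Leaving out these 4 moved none of the shares of called members given below by over 1.5 times.

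The boundary of the group was shallow. Rank 500 had a mean of 154.1 CPM and the 1000th window, Gm12191, had 135.42 CPM, against 135.41 CPM for the next one, Snora41. Just inside stood Gab2, Pcnp and Rpl30, and just outside stood Pik3r1, Gab1 and 9330151L19Rik, all with values from 135.2 to 135.5 CPM. Of the 1000 members, 738 were among the 1000 strongest in every library taken alone, and each library alone held between 869 and 930 of them. A ranking on the 48 h libraries only shared 912 IDs with the members, and 1 on the 0 h libraries only shared 903. The members held 17.0% and 16.9% of all counts in the 48 h libraries, and 16.6% and 16.8% in the 0 h libraries. The lowest count of any member in any library was 1414.

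By annotation, 880 members were protein-coding genes, 83 long noncoding RNAs, 13 microRNAs, 12 small nucleolar RNAs, 8 transcribed pseudogenes and 1 an antisense RNA, and 3 IDs had no entry. Many members were close neighbours. The 996 members with coordinates fell into 703 loci when genes within 5000 bp were joined. Within that distance 564 members had another ID, member or not, with a mean count within 0.8 to 1.25 times their own. Inha and Obsl1, a cytoskeletal adaptor, were such a pair, as were Foxl2 and its antisense partner Foxl2os, Gata6 and Gata6os, and Sema5a and Snhg18. Locus members numbered 4 at Ino80d, Ino80dos, Ndufs1 and Eef1b2, at Adnp, Gm20716, Dpm1 and Mocs3, and at the snoRNA host locus with Snord35a, Snord34, Snord33 and Mir5121. Counts identical to those of another ID were found at 20 members. Whether neighbours with like counts shared reads was not tested, and from rank 3 to rank 1000 the mean H3K4me3 of members spans only 3.36-fold.

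RNA of the members was nearly always detected. Mean RNA reached 1 CPM at 949 of the 999 members in the RNA table (95%), against 12681 of 23526 other IDs (53.9%). In single libraries the share of members at 1 CPM or more was 94.6% to 94.8% at 48 h and 94.9% to 95.5% at 0 h. Among the 880 protein-coding members 5 were under it. The share was close to this far down the ranking, with 93.5% at ranks 1001 to 2000 and 91.4% at ranks 9001 to 10000. What changed more along the ranking was the share at 100 CPM or more, 42.6% of members, 33.9% at ranks 1001 to 2000 and 7.10% at ranks 9001 to 10000. CPM is not corrected for length, since no transcript lengths were given, so these are shares past a fixed count and not an order of genes. Seen from the RNA, 426 of 2377 IDs at 100 CPM or more were members (17.9%). With only 1000 members, most such IDs had to lie outside whatever their H3K4me3.

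**Figure D2:**
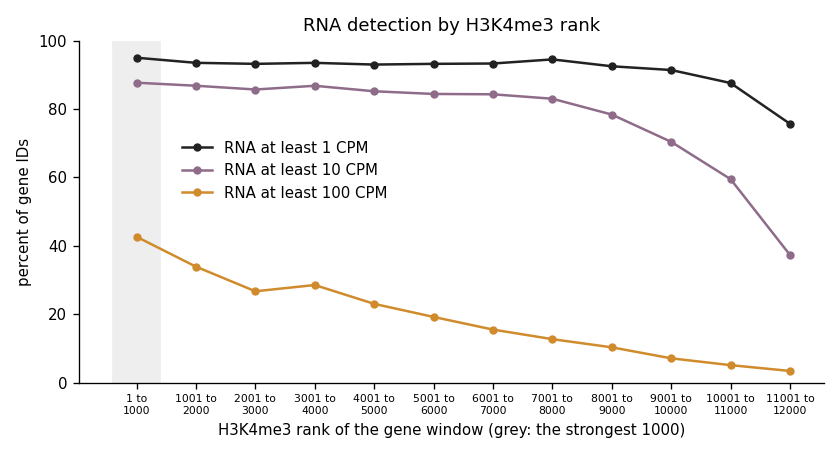
Percent of gene IDs with mean RNA of at least 1, 10 and 100 CPM (lines), for bins of 1000 IDs by H3K4me3 rank, the strongest on the left with a grey band. The share at 1 CPM stays between 91.4% and 95% over the first 10000 ranks, while the share at 100 CPM drops from bin to bin apart from a small rise at ranks 3001 to 4000.

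Most of the 50 members under 1 CPM of RNA lay beside a gene with RNA. Of the 50, 19 were long noncoding RNAs, 12 microRNAs and 9 small nucleolar RNAs, and 39 had a neighbour of like H3K4me3 count with RNA of at least 1 CPM. Examples were 9330179D12Rik beside Ccnd2, the D-type cyclin of granulosa cells, A530013C23Rik beside Cebpb, a C/EBP transcription factor, and Gm13986 beside Thbs1. No such neighbour was found for 11 members. These were Mir101c, gene ID 212427, Snord35a, Snord34, Snord33, Mir5121, Mir3082, Mir99b, Gm10052, gene ID 22135 and the ribosomal protein gene Rpl30. RNA was 0 in every library at 14 members, among them Mir101c, Mir5121, Gm6793, Gm44505, Mir707, Gm10052 and Mir7672. Rpl30 had 0.153, 0.0800 and 0.261 CPM of RNA at 48 h and 0.257, 0.395 and 0.158 CPM at 0 h. Ribosomal protein genes have many near-identical pseudogene copies, and how the authors counted reads that fit several places is not given, so its RNA value is uncertain. Short mature RNAs such as microRNAs are poorly captured by standard RNA-seq, so their low values are uncertain too.

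Gene lists differed widely in how many of their genes were members. Splicing and RNA-binding proteins had the highest share, 23 of 38, followed by granulosa cell markers with 7 of 14 and granulosa identity factors with 11 of 28. The granulosa markers among the members were Inha, Foxl2, Fst, which binds and blocks activin, the oestrogen receptor Esr2, Gata4, the oestrogenic enzyme Hsd17b1 and Inhbb. Fshr, Inhba, Amh, Amhr2, Nr5a2, Kitl and Wt1 were not members. The splicing members included Hnrnpa2b1, Hnrnpu, Hnrnpk, Srsf2, Srsf3 and Ewsr1. Shares of 21.9% to 27.3% were found for ubiquitin and proteasome genes, chromatin regulators of H3K4 and Polycomb, FSH response genes, PI3K, insulin and MAPK genes, immediate early genes, cell cycle genes and TGF-beta family genes. Ribosomal protein genes had 5 of 39 members. None of 23 genes of cholesterol synthesis and uptake and none of 34 replication-dependent histone genes was a member. Over all IDs 4.07% were members, and over IDs with RNA of at least 1 CPM 6.96%. The lists were chosen with earlier results of these data known, so these shares are descriptions.

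**Figure D3:**
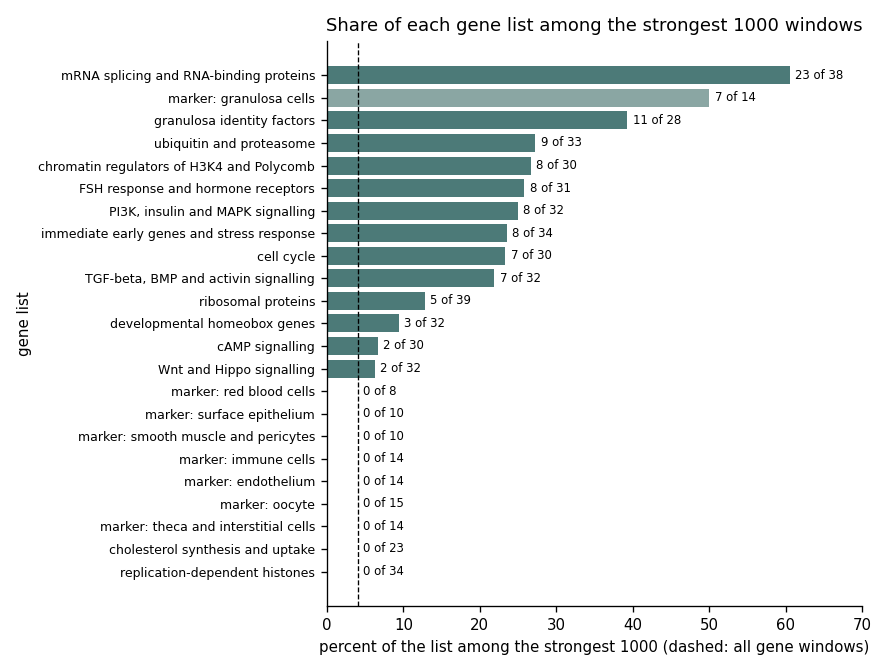
Percent of the genes of each list that are among the strongest 1000 windows (bars, with counts), and the share of all windows (dashed line at 4.07%); lists of cell type markers are paler. Splicing proteins, granulosa markers and granulosa identity factors lie at the top, and the 7 marker lists of other cell types lie at 0.

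The X chromosome held almost none of the strongest windows. Members were 3 of 1071 windows on X (0.280%), against 993 of 23351 on the autosomes (4.25%). Among IDs with RNA of at least 1 CPM they were 3 of 482 on X (0.622%) and 945 of 13141 on the autosomes (7.19%). With RNA of at least 100 CPM they were 1 of 79 on X and 424 of 2297 on the autosomes (18.5%). The lowest autosomal share among IDs with RNA of at least 1 CPM was 4.67%, on chromosome 7, and the highest 11.2%, on chromosome 12. The median H3K4me3 of IDs with RNA of at least 1 CPM was 37.7 CPM on X and 64.1 CPM on the autosomes. The cells came from an ovary, and in female mammals 1 X chromosome is silenced in each cell. The part of this silencing in the low share on X was not tested.

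The X-linked members were Ddx3x, an RNA helicase, at rank 82, Kdm6a at rank 108, and Gm5643, a transcribed pseudogene, at rank 518. Ddx3x had 236 and 223 CPM of H3K4me3 at 48 h and 196 and 209.8 CPM at 0 h. Kdm6a had 218 and 208 CPM at 48 h and 194 and 201 CPM at 0 h. Both genes are known to escape X inactivation in mice. Kdm5c and Eif2s3x, which also escape in mice and were looked up after the values of Ddx3x and Kdm6a had been seen, ranked 1566 and 3189. The next X-linked windows after the members were Mid1ip1 at rank 1217 and Tceal9 at rank 1308.

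**Figure D4:**
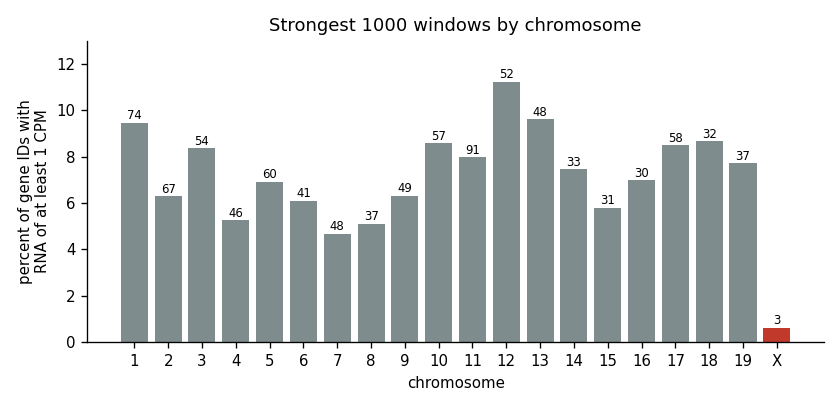
Percent of gene IDs with mean RNA of at least 1 CPM that are among the strongest 1000 windows, by chromosome (bars, with the number of members above each). The bar of X, in red with 3 members, lies at 0.622%, and the autosomes lie between 4.67% and 11.2%.

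Promoter sequences were compared over protein-coding genes, of which 713 of 880 members (81.0%) and 16523 of 20624 genes in all (80.1%) had an entry in the RefSeq table. Over 300 bases around the start, members had a median of 25 CpGs, with quartiles of 18.5 and 33, against 14 over all protein-coding genes and 20 over those with RNA of at least 1 CPM (members included). At ranks 1001 to 2000 the median was 25 and at ranks 2001 to 3000 it was 26. Among genes with RNA of at least 1 CPM the median was 16 on X (399 genes) and 20.5 on the autosomes (10144 genes). Of these, 27.6% of X genes and 16.9% of autosomal genes had fewer than 10 CpGs. The part of this difference in the low share of members on X was not tested. The start in the promoter table was the outer end of the gene in the gene table at 188 of the 713 members (26.4%) and at 29.4% of all 16523 genes. Fewer than 10 CpGs were found at 29 members (4.07%), against 17.3% of the genes with RNA of at least 1 CPM and 39.6% of all. Among them, picked out after their values were seen, were Inha with 5 CpGs, its neighbour Obsl1 with 8, Gja1 with 8 and Akr1c14, a 3-alpha-hydroxysteroid dehydrogenase, with 2. A GC box (GGGCGG, either strand) was found in 67.7% of 944 member promoters, in 61.7% of 13500 promoters of genes with RNA of at least 1 CPM and in 48.0% of all 20149. An ETS motif (CCGGAAG) was in 19.9% of member promoters, 16.5% of those of genes with RNA and 11.9% of all. A TATA box (TATAAA) was in 6.78% of member promoters, 7.30% of those of genes with RNA and 12.4% of all. A match is a run of letters in this window and not a bound site.

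RNA at the strongest windows was called changed about as often as RNA in general, and fewer members passed 2-fold. Of 958 members tested, 130 were called higher at 48 h (13.6%) and 168 lower (17.5%) by the quasi-likelihood test of edgeR, adjusted after Benjamini and Hochberg over all 14401 genes tested, of which 16.0% were called higher and 15.8% lower. In either direction this made 298 members (31.1%), against 31.8% of all genes. The remaining 42 members were too low in RNA for the test or absent from the RNA table. A fitted change of at least 2-fold was seen at 32 members (3.34%), against 9.39% of all genes tested. Groups did not overlap at 171 members higher at 48 h (17.8%, against 22.1% of all genes) and 272 lower (28.4%, against 25.8%). The median log2 fold change was -0.05 over members and -0.03 over all genes. Without regard to sign its median was 0.21 over members and 0.29 over all tested genes with an H3K4me3 window. At ranks 1001 to 5000 it was 0.21 to 0.22 per bin of 1000, so small changes were not particular to the members. Leaving out 0 h replicate 2 gave 11.1% lower and 0 h replicate 3 10.1%, and leaving out 48 h replicate 2 gave 11.2% and 48 h replicate 3 11.1%. Without 48 h replicate 1, 20.3% were higher and 17.5% lower, so the larger share of falls did not hold there. With library size as the only scaling, 19.4% of member calls were higher in place of 43.6%, with the median of all genes at -0.20.

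The granulosa markers among the members rose at 6 of 7 genes and fell at 1, against 16.0% and 15.8% of all genes. Over the whole list of 14 markers 9 rose and 3 fell, and of those that were no members Amh (-1.38) and Wt1 (-1.07) fell while Amhr2 and Nr5a2 were not called. Inha, the most abundant of them, had 17571, 16708 and 16268 CPM of RNA at 48 h, against 9043, 7208 and 8292 CPM at 0 h (log2 1.04 ± 0.13, adjusted p = 9.90e-04). All 48 h libraries lay above all 0 h libraries. Inhbb had 10619, 11848 and 10952 CPM at 48 h and 4924, 4280.1 and 4819.7 CPM at 0 h (log2 1.25 ± 0.12, adjusted p = 3.39e-04), and Fst had 1861, 2156 and 2178 CPM at 48 h and 1009, 697 and 747 CPM at 0 h (log2 1.34 ± 0.16, adjusted p = 7.28e-04). Inhibin, activin B and the activin antagonist follistatin are built from these genes. Foxl2, Gata4 and Hsd17b1 rose by 0.55, 0.57 and 0.78 on the log2 scale, and the call of Foxl2 was lost on leaving out 0 h replicate 2 (0.0609) or 48 h replicate 2 (0.0531). Esr2, the oestrogen receptor beta of granulosa cells, had 165, 203 and 192 CPM at 48 h, against 435, 347 and 333 CPM at 0 h (log2 -0.99 ± 0.13, adjusted p = 0.00110), with groups that did not overlap. Of the 11 identity factors, which share Foxl2, Gata4 and Esr2 with the markers, 4 rose and 5 fell, and over the 27 tested genes of the whole list 6 rose and 11 fell. Gata6 rose by 0.64, and Sox4, an SRY-box factor, Emx2, a homeobox factor of the gonad, and Zfpm2, a cofactor of GATA proteins, fell with log2 differences of -0.74, -0.77 and -1.05. Nr5a1, steroidogenic factor 1, rose by 0.46, a call lost on leaving out 0 h replicate 2 (0.0687), 0 h replicate 3 (0.0779), 48 h replicate 2 (0.0530) or 48 h replicate 3 (0.0548). Foxo1, at 953, 1292 and 1257 CPM at 48 h against 1543, 1571 and 1527 CPM at 0 h, fell (log2 -0.41 ± 0.13, adjusted p = 0.0452), a call lost on leaving out 0 h replicate 1 (0.0835), 0 h replicate 2 (0.130), 0 h replicate 3 (0.125), 48 h replicate 2 (0.0530) or 48 h replicate 3 (0.0796).

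The largest RNA rises among members were those of Adamts1, Vcan and Elovl6. Adamts1, a protease that cleaves versican, had 209, 216 and 199 CPM at 48 h and 47.7, 46.3 and 46.1 CPM at 0 h (log2 2.16 ± 0.08, adjusted p = 1.16e-05). Its substrate Vcan had 1505, 1394 and 1264 CPM at 48 h and 342, 308 and 298 CPM at 0 h (log2 2.13 ± 0.11, adjusted p = 3.68e-05). Elovl6, which elongates fatty acids, had 765, 591 and 605 CPM at 48 h and 159, 167 and 143 CPM at 0 h (log2 2.06 ± 0.13, adjusted p = 8.90e-05). The 48 h values lay far from the 0 h values at all 3 genes. Fosl2 rose by 1.17, Akr1c14 by 1.15, the semaphorin receptor Plxnc1 by 1.14 and Prkar2b, a regulatory subunit of protein kinase A, by 1.11. Among the 20 strongest windows Ext1 rose by 1.04, Gja1 by 0.81 and Bmpr2 by 0.53. Of the 8 FSH response members 5 rose and none fell, and the remaining 3 did not pass the test. Over the whole list of 31 genes 20 rose and none fell, where 16.0% of all genes rose and 15.8% fell. Without 48 h replicate 1, the RNA library with the highest endothelial markers, the 8 members had 6 rises and 1 fall.

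The largest RNA falls among members included those of Tent5a, Smad7 and Myc. Tent5a, a poly(A) polymerase, had 24.8, 25 and 23.9 CPM at 48 h and 61.7, 101 and 47.3 CPM at 0 h (log2 -1.50 ± 0.24, adjusted p = 0.00257). Smad7, which blocks TGF-beta receptors, had 27.5, 26.5 and 27.4 CPM at 48 h and 69.1, 40.2 and 84.9 CPM at 0 h (log2 -1.25 ± 0.23, adjusted p = 0.00467). Myc, the growth-promoting transcription factor, had 47.8, 33.4 and 28.3 CPM at 48 h and 105, 78 and 61.4 CPM at 0 h (log2 -1.16 ± 0.23, adjusted p = 0.00609). The 0 h libraries of these 3 genes were widely spread, and each still lay above every 48 h library. Cables1, Mast4, Adamts6, Ivns1abp, Magi1 and Ccnl1 fell as well, with log2 differences from -1.20 to -1.03. Of the 8 immediate early and stress genes among members 4 fell and 1 rose, the falls including Myc, Klf6 (-0.70) and Zfp36l2 (-0.70), which destabilises mRNAs, and the rise being Fosl2. Over the 33 tested genes of that whole list 15 fell and 2 rose, where 15.8% of all genes fell and 16.0% rose. Of the 7 TGF-beta family members 3 rose, namely Fst, Bmpr2 and Bmpr1a (0.36), and 2 fell, among them Smad7. Over the whole list of 32 genes 7 rose and 8 fell, to be set beside the same shares of all genes.

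Members of the splicing and chromatin lists fell or did not pass the test. Of the 23 splicing and RNA-binding members, 8 fell, 15 did not pass and none rose, with a median log2 fold of -0.13. Over the whole list of 38 genes 12 fell and none rose, where 15.8% of all genes fell and 16.0% rose. Luc7l3, Srsf7 and Rbm39 fell with log2 differences of -0.65, -0.43 and -0.39, the call of Rbm39 being lost on leaving out 0 h replicate 2 (0.0639), 48 h replicate 2 (0.0659) or 48 h replicate 3 (0.0548). Hnrnpa1 had only 11, 9.20 and 11.1 CPM at 48 h and 18.1, 18.1 and 19.3 CPM at 0 h, and since it has many processed copies its RNA value is uncertain. Of the 8 chromatin regulators among members, 5 fell and none rose, and over the whole list of 30 genes 10 fell and none rose. Setd1b, a methyltransferase of H3K4, had 51.7, 59.2 and 57.5 CPM at 48 h and 73.9, 79.0 and 83.9 CPM at 0 h (log2 -0.49 ± 0.09, adjusted p = 0.00404), and Kmt2a, another, had 117, 117 and 131 CPM at 48 h and 162, 162 and 157 CPM at 0 h (log2 -0.40 ± 0.08, adjusted p = 0.00756). Pcgf2, a Polycomb subunit, fell by 0.54, Kmt2d by 0.52 and Kmt2c by 0.39 on the log2 scale. The call of Kmt2d was lost on leaving out 0 h replicate 3 (0.0570) or 48 h replicate 2 (0.0528), and that of Kmt2c on leaving out 0 h replicate 2 (0.0645), 0 h replicate 3 (0.0830), 48 h replicate 2 (0.0853) or 48 h replicate 3 (0.0574). None of the 4 ribosomal protein members tested was called in either direction. Of the 7 cell cycle members 2 rose, the inhibitors Cdkn1b (0.40) and Cdkn2c (0.85), and none fell, and over the whole list of 30 genes 7 rose and none fell. The cyclin Ccnd2, with 449, 621 and 584 CPM at 48 h and 421, 404 and 453 CPM at 0 h, was not called (adjusted p = 0.0606) and was called on leaving out 48 h replicate 1 (0.00273).

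Smaller lists moved in few members. Of the 9 ubiquitin and proteasome members 2 rose, Psmb1, a proteasome subunit (0.38), and the ubiquitin gene Ubb (0.35), and 1 fell. Over the whole list of 33 genes 2 rose and 1 fell, where 16.0% of all genes rose and 15.8% fell. The calls of Psmb1 and Ubb were lost without some single libraries, with adjusted p-values of 0.0507 to 0.111 there. Without 48 h replicate 1, 4 of the 9 members rose. Of the 8 PI3K, insulin and MAPK members 2 rose and Foxo1 fell, and over the whole list of 32 genes 2 rose and 5 fell. Tcf7l2, a Wnt-responsive factor, fell by 0.89 on the log2 scale, and Tle1, a corepressor, was not called (adjusted p = 0.0633). Over the whole Wnt and Hippo list of 32 genes 6 rose and 9 fell. Of 2 cAMP members Prkar2b rose, and Prkar1a, with 385, 436 and 434 CPM at 48 h and 368, 347 and 359 CPM at 0 h, was not called (adjusted p = 0.0979) except on leaving out 48 h replicate 1 (0.0170). Over the 29 tested genes of the whole cAMP list 8 rose and 6 fell. Among the 3 homeobox members 1 rose, Emx2 fell and Meis1 was not called. Over the 23 tested genes of the whole homeobox list 1 rose and 7 fell.

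H3K4me3 itself differed by little between the groups at these windows. Of 1000 members, 149 were called higher at 48 h (14.9%) and 29 lower (2.9%), against 6.35% and 2.08% of the 24476 windows tested. In either direction 178 members were called (17.8%), against 8.42% of all windows. Groups did not overlap at 434 members higher at 48 h (43.4%, against 26.5% of all windows) and 168 lower (16.8%, against 22.8%). No member changed by 2-fold or more, as did 0.486% of all windows, and the 5th and 95th percentiles of the members' log2 fold changes were -0.17 and 0.30. Windows at ranks 1001 to 10000 were called higher at 8.0% to 11.8% per bin of 1000, and lower at 1.5% to 3.7%. The libraries compared are those that chose the members, and a window high at 48 h or at 0 h could enter through that group alone. Ranked on the 0 h libraries only, 9.5% of the 1000 windows were called higher and 5.0% lower, and ranked on the 48 h libraries only, 20% and 1.6%. With n = 2 the calls leaned on single libraries. Without 0 h replicate 1 only 1.4% of members were called higher and 1.4% lower, and without 48 h replicate 1 3.8% and 1.9%. Leaving out 0 h replicate 2 gave 1.5% lower, and leaving out 48 h replicate 2 gave 1.8%. With library size as the only scaling, 62.1% of member calls were higher in place of 83.7%.

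The largest H3K4me3 rises included those of Inhbb, Nr5a1 and Enc1. Inhbb had 204 and 177 CPM at 48 h and 116 and 118 CPM at 0 h (log2 0.71 ± 0.07, adjusted p = 5.47e-10), and Nr5a1 had 184 and 177 CPM at 48 h and 118 and 120.03 CPM at 0 h (log2 0.60 ± 0.07, adjusted p = 9.52e-09). Enc1 had 177 and 176 CPM at 48 h and 111 and 118 CPM at 0 h (log2 0.63 ± 0.07, adjusted p = 4.31e-09). The groups stood clear of each other at these 3 windows. Their 0 h values lay below 135.42 CPM, the mean at rank 1000, so they were members through their 48 h values. The size of these rises is therefore not independent of the choice of members. Mtcl1, which links microtubules, and Fam222a rose by 0.61 and 0.58 on the log2 scale, and Elovl6, 5730420D15Rik beside Socs2, Gapdh, a glycolytic enzyme, and Plxnc1 by 0.47, 0.45, 0.44 and 0.44. All of these calls held without any single library. All 7 granulosa markers among the members were called in the direction of their RNA, 6 higher and Esr2 lower (log2 -0.32 ± 0.07, adjusted p = 0.00138). Of these, Inha, Foxl2, Fst, Esr2 and Gata4 were not called without 1 or more single libraries, with adjusted p-values of 0.0584 to 0.283 there, the highest at Inha without 0 h replicate 1.

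The largest H3K4me3 falls stood at Gtf2e2, a subunit of the general transcription factor TFIIE, and Ank3, a membrane-skeleton adaptor. Gtf2e2 had 121 and 124 CPM at 48 h and 187 and 189 CPM at 0 h (log2 -0.62 ± 0.07, adjusted p = 4.46e-09), and Ank3 had 107 and 111 CPM at 48 h and 165 and 168 CPM at 0 h (log2 -0.61 ± 0.07, adjusted p = 6.18e-09). Thbs1, thrombospondin 1, had 121 and 126 CPM at 48 h and 178 and 184 CPM at 0 h (log2 -0.55 ± 0.07, adjusted p = 6.52e-08), and Gm13986 lies beside it. Myc had 180.2 and 179.6 CPM at 48 h and 241 and 258 CPM at 0 h (log2 -0.47 ± 0.07, adjusted p = 1.60e-06). In each of these windows both 48 h libraries lay below both 0 h libraries. At Gtf2e2, Ank3 and Thbs1 the 48 h values lay below 135.42 CPM, the mean at rank 1000. These windows were members through their 0 h values, so the size of their falls is not independent of the choice. Fam78a, Rgs2, which shortens G protein signals, Snx18, the protease Prss23 and Txnip, which binds thioredoxin, fell with log2 differences from -0.53 to -0.37. The 10 largest falls held without any single library. RNA fell at 9 of these 10 genes as well, against 15.8% of all genes and 52.0% of all genes with lower H3K4me3. The exception was Gm13986, whose RNA was under 2 CPM in every library. Since it is a neighbour of Thbs1 with a like H3K4me3 count, the 10 windows are not all separate. The RNA call of Thbs1 was lost on leaving out 48 h replicate 3 (0.0549). That of Prss23 was lost on leaving out 0 h replicate 2 (0.0547), 48 h replicate 2 (0.0571) or 48 h replicate 3 (0.0795).

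Members called in both assays were called in the same direction more often than in opposite ones. Of the 958 members tested in both, 48 were higher in both (5.01%, against 3.56% of 14357 genes) and 20 lower in both (2.09%, against 1.56%). RNA was higher with lower H3K4me3 at none (0.0697% of all genes), and lower with higher H3K4me3 at 9 (0.939%, against 0.731%). Of the 29 members with lower H3K4me3, RNA fell at 20 (69.0%) and rose at none. Over all genes with lower H3K4me3, RNA fell at 52.0% and rose at 2.32%. Of the 168 members with lower RNA, H3K4me3 was lower at 20 (11.9%) and higher at 9 (5.36%), against 9.84% and 4.61% over all such genes. Of the 143 members with higher H3K4me3 and tested RNA, RNA rose at 48 (33.6%), fell at 9 (6.29%) and was not called at 86. Over all such genes RNA rose at 37.2% and fell at 7.64%. Most RNA changes had no called change of the mark, as at 82 of the 130 members with higher RNA and 139 of those with lower RNA. The same held over all genes, at 1780 of 2301 with higher RNA and 1948 of 2277 with lower RNA. The log2 fold changes of both assays were weakly related over members (Spearman rho 0.30, n = 958; 0.26 over all 14357 genes), a description over genes that share libraries. Vcan and Adamts1, whose RNA had log2 differences of 2.13 and 2.16, had H3K4me3 log2 differences of 0.22 and 0.26, and those calls were lost without single libraries (adjusted p = 0.0596 to 0.533 there). Bmpr2 and Akr1c14 rose in RNA with H3K4me3 at 0.03 and -0.06, neither called (adjusted p = 0.884 and 0.697).

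**Figure D5:**
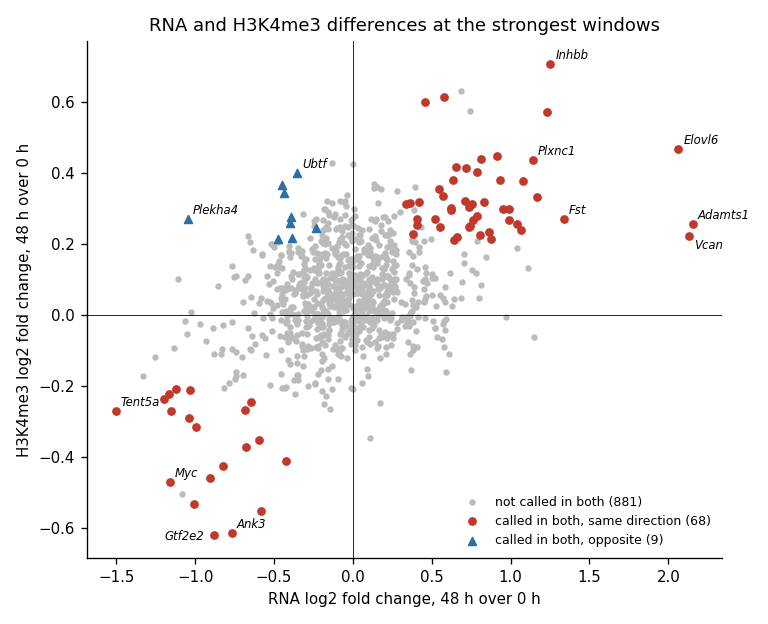
RNA log2 fold change (x axis) against H3K4me3 log2 fold change (y axis), both 48 h over 0 h, for the 958 members tested in both assays; red points were called in both in the same direction, blue triangles in opposite directions, and grey points in at most 1. Red points fill the upper right and lower left, the 9 blue triangles lie in the upper left, and the lower right holds no coloured point.

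The 8 members named among those with opposite calls were Plekha4, Ncoa2, Atxn2, Ubtf, Zfp827, Kmt2a, Phf12 and Kmt2c. Several act in transcription, with Ncoa2 a coactivator of nuclear receptors, Ubtf a factor of RNA polymerase I and Kmt2a and Kmt2c methyltransferases of H3K4. Ubtf had 233 and 191 CPM of H3K4me3 at 48 h and 156 and 166 CPM at 0 h (log2 0.40 ± 0.07, adjusted p = 1.80e-04), with RNA of 155, 172 and 168 CPM at 48 h and 210.5, 197 and 224 CPM at 0 h (log2 -0.35 ± 0.09, adjusted p = 0.0179). Ncoa2 had 198 and 163 CPM of H3K4me3 at 48 h and 133 and 148 CPM at 0 h (log2 0.37 ± 0.08, adjusted p = 7.83e-04), with RNA of 64.0, 82.3 and 81.6 CPM at 48 h and 97.3, 108 and 106 CPM at 0 h (log2 -0.45 ± 0.11, adjusted p = 0.0144). The groups did not overlap in either assay at these 8 genes. The RNA calls of Plekha4, Ncoa2, Ubtf, Zfp827 and Kmt2c were lost without 1 or more single libraries, with adjusted p-values of 0.0556 to 0.175 there. The H3K4me3 rises of the 8 genes were small, and H3K4me3 was higher in 48 h replicate 1 than in 48 h replicate 2 at 7 of the 8, Plekha4 excepted. Every one of the 8 H3K4me3 calls was lost without 0 h replicate 1 (adjusted p = 0.155 to 0.547), and at all but Plekha4 also without 48 h replicate 1 (adjusted p = 0.105 to 0.60).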

How the data were processed

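Per the labels, H3K4me3 ChIP-seq and RNA-seq were measured in granulosa cells at 48 h of eCG and at 0 h. The authors deposited 1 table per assay, with unnormalized whole-number read counts for each Entrez ID. Per the submitters' processing notes, the build was mm10. For ChIP-seq these notes name ChIPseeker 1.18.0, MACS2 2.2, Bowtie2 2.2.9 and Trimmomatic, and for RNA sleuth, kallisto, STAR, Picard and FastQC 0.11.5, without a role or order; the window counted per gene is not given in the sources used here. The input library was not used. Names tied each ChIP-seq column to its group; the number closing a column name only names the library. Members and gene lists (23 lists, 551 genes) were chosen with earlier results of these data known.

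Within each assay 48 h was set against 0 h on the whole table with edgeR 4.0.16 (R 4.3.3), using the quasi-likelihood test, TMM scaling, filterByExpr and Benjamini-Hochberg adjustment, with calls at an adjusted p under 0.05. A log2 fold change sets 48 h over 0 h, and its standard error was derived from the F statistic. P-values measure only the spread between these libraries, and with n = 2 they rest on variation shared across windows. CPM per library is TMM-scaled, and means used for ranks and for RNA shares are scaled by library size. Named genes were the 20 strongest, the 10 largest rises and falls per assay among called members with groups that did not overlap (RNA of at least 5 CPM), the 8 lowest in RNA, 5 on either side of rank 1000, up to 4 per list by RNA p, up to 8 called in both assays in each of the same and opposite directions, and granulosa markers. Some genes that this rule names are not reported here. Coordinates and sequences are RefSeq's on GRCm38.p6 (mm10 is the browser name of GRCm38). The fits were tested on simulated data, and DESeq2 1.42.0 was an alternative.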

Additional observations from a re-analysis of the deposited data

How the results depend on the processing

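The shares of members called were recomputed under other scalings, filters, tools and member sets and without each library. With library size as the only scaling, RNA was called higher at 8.56% and lower at 35.6% of members, and H3K4me3 was called lower at 7.7%. H3K4me3 was called higher at 9.2% by DESeq2 and lower at 4.9% with no filter. With windows ranked on the 0 h libraries only, H3K4me3 was called higher at 9.5% and lower at 5.0%, and with the 48 h libraries only lower at 1.6%. Leaving out 1 library at a time gave RNA lower at 10.1% to 17.5%, H3K4me3 higher at 1.4% to 17.9% and H3K4me3 lower at 1.4% to 1.9%. Replicate numbers did not pair the libraries, with same-number correlations of 0.0251 in H3K4me3 and -0.212 to -0.127 in RNA; with the replicate number as a block, H3K4me3 was called higher at 5.8% and lower at 1.3%, RNA higher at 11% and lower at 12.3%. The other settings moved these shares by less than 1.5 times. Without single libraries RNA was called higher at 9.20% to 20.3% of members, the highest share without 48 h replicate 1. The median RNA log2 fold change of members was 0.0030 without 48 h replicate 1, against -0.05 with all libraries. Of the genes named in the report, 74 were called in RNA and 52 of them under every alternative, and 54 in H3K4me3, 21 of them under every alternative. At Mir101c the H3K4me3 difference was -0.51 on leaving out 48 h replicate 2 and 1.43 on leaving out 48 h replicate 1. The cause of these shifts was not tested. The lowest H3K4me3 count of any member in any library was 1414.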
